A study of Homo sapiens with 2 samples.

Results

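Interleukins and colony stimulating factors are secreted proteins by which cells instruct immune, stromal and neighbouring tumour cells. The 10 genes of this group that were examined are IL1A, IL1B, IL6, IL11, LIF, CSF1, CSF2, CSF3, IL24 and IL32. They were taken by gene symbol from the annotation of GENCODE release 29, and all 10 were found among the 49627 genes listed in the libraries. RNA-seq had been carried out on MDA-MB-231, a mesenchymal human line derived from triple-negative breast cancer, with 1 library labelled RBMS1 knocked down and 1 library labelled control. The study made such cells as stable lines by lentiviral infection with shRNA in the pLKO.1 plasmid under puromycin selection, with the empty pLKO.1 vector as the control, and the labels name no cytokine, interferon or other stimulus for either library. Neither group has a replicate and no test could be made, so each comparison describes these 2 libraries only. Both were grown in L15 medium, and the clonality of the stable lines is not given in the labels.

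Cytokine genes of this kind are transcribed at a low level in resting cells and are switched on by inflammatory transcription factors such as NF-κB and AP-1. Many of their mRNAs carry AU-rich elements in the 3′-UTR, where RNA-binding proteins speed up or slow down decay, so their levels depend on both synthesis and stability. Interleukin 1 α and β act through IL1R1, interleukin 6, interleukin 11 and LIF share the signal-transducing receptor gp130 (IL6ST), and the colony stimulating factors act mainly on macrophages and granulocytes. In breast cancer such factors are known for recruiting myeloid cells and for autocrine signals in mesenchymal tumour cells. RBMS1 is an RNA-binding protein, and the study ran the assay in its work on how RBMS1 affects the glycosylation of PD-L1.

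The label of the knockdown was checked first. RBMS1 measured 3.76 FPKM after knockdown against 24.1 FPKM in the control, a log2 ratio of −2.40. FPKM scales the fragments of a transcript by its length and by the size of the library. For the log2 ratio, 1 FPKM was added to both values before the knockdown was divided by the control, so that it understates the change of low genes. MDA-MB-231 markers were abundant in both libraries, with VIM measuring 496 FPKM after knockdown against 563 FPKM in the control, while the hormone receptor genes ESR1 and PGR were at 0.0996 FPKM or below. Of 7 immune cell markers, 4 were listed at 0 in both libraries, including CD3E and ITGAM, and the highest value was 0.968 FPKM, for CD14 in the control. The 7 together summed to 0.898 FPKM after knockdown against 0.993 FPKM in the control. A value of exactly 0 in these files can be a failed estimate, since ELAVL1, a gene that nearly every cell expresses, was also listed at 0 in both libraries. Endothelial markers summed to at most 0.0761 FPKM and fibroblast markers to 1.02 FPKM after knockdown against 1.46 FPKM in the control. Read counts are not in the files. The coverage behind 1 FPKM, a measure of relative depth, was 12.4 after knockdown against 11.4 in the control.

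All 10 genes were at a lower level in RBMS1-depleted cells, and 8 of them were at least 2-fold lower. Of the 11186 genes whose mean over both libraries reached 1 FPKM, 47.2% had a log2 ratio below 0. At least 2-fold lower were 2.8% of them, and 2.96% were at least 2-fold higher. The 10 cytokine genes were above 0 in both libraries, and of the 10882 such genes 1.57% were at least 2-fold lower. The 8 genes were CSF3, CSF2, IL24, IL1B, IL1A, IL32, IL11 and IL6, with log2 ratios from −2.73 to −1.61, and the 2 that did not reach 2-fold were LIF and CSF1. CSF3, IL1B and IL1A were under 1 FPKM in the knockdown library and reached a mean of 1 FPKM only through the control library. The median log2 ratio of the 10 genes was −2.02, beside a median of 0.02 over all 11186 genes. Because the 10 genes were chosen with earlier results of these data known, their count and median describe them and test nothing. Cufflinks gives each transcript an interval, which covers uncertainty within its library but not between cultures. Added up per gene, the intervals of the libraries did not overlap for any of the 10 genes, and 11.5% of all genes were lower with no overlap. In bulk RNA, fewer cells that express a gene and less RNA per cell cannot be told apart.

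**Figure D1:**
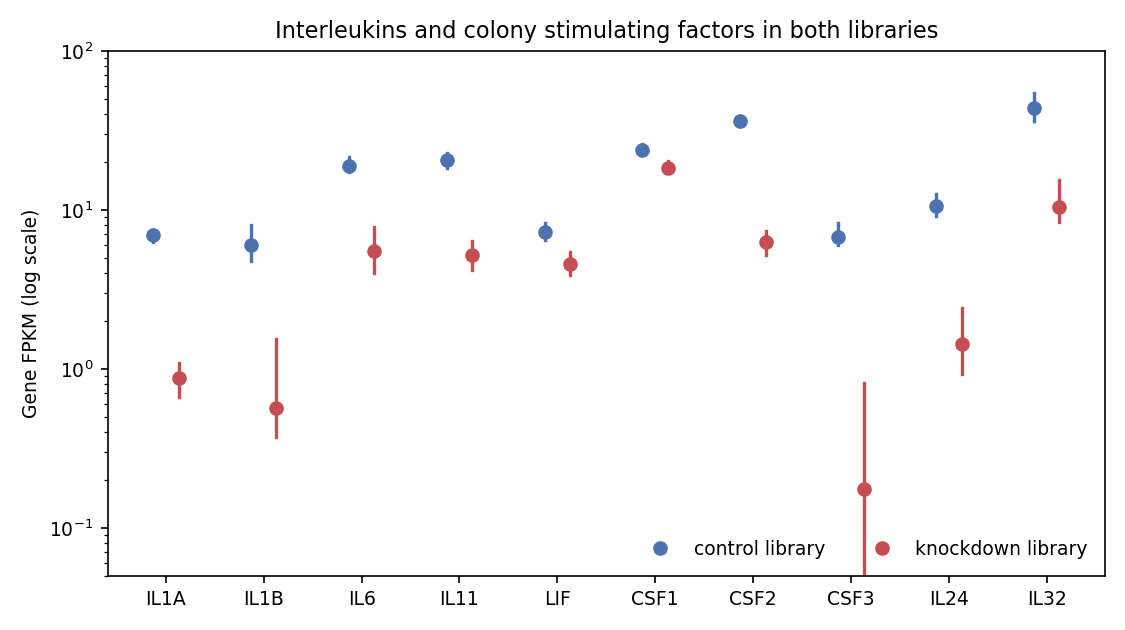
Gene FPKM on a log axis of the 10 genes in the control library and the knockdown library (1 library each). Points are the gene values and lines the summed within-library intervals, which do not cover differences between cultures; the lower end for CSF3 in the knockdown library is 0.00347 FPKM. Every gene is lower in the knockdown library, from CSF3 (6.77 to 0.175 FPKM) to CSF1 (23.8 to 18.4 FPKM).

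The group was at 180.4 FPKM in sum in control cells and at 53.4 FPKM in RBMS1-depleted cells, 29.6% of the control. The order of the levels was not the same in both libraries. In control cells the order was IL32, CSF2, CSF1, IL11, IL6, IL24, LIF, IL1A, CSF3 and IL1B, and the within-library intervals of neighbours in this order overlapped except between CSF2 and CSF1, between IL6 and IL24 and between IL24 and LIF. In RBMS1-depleted cells CSF1 was the most abundant, with 34.5% of the summed FPKM against 13.2% in control cells. It was followed by IL32, CSF2, IL6, IL11, LIF, IL24, IL1A, IL1B and CSF3, with intervals that were separate between CSF1 and IL32, between IL32 and CSF2 and between LIF and IL24.

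**Figure D2:**
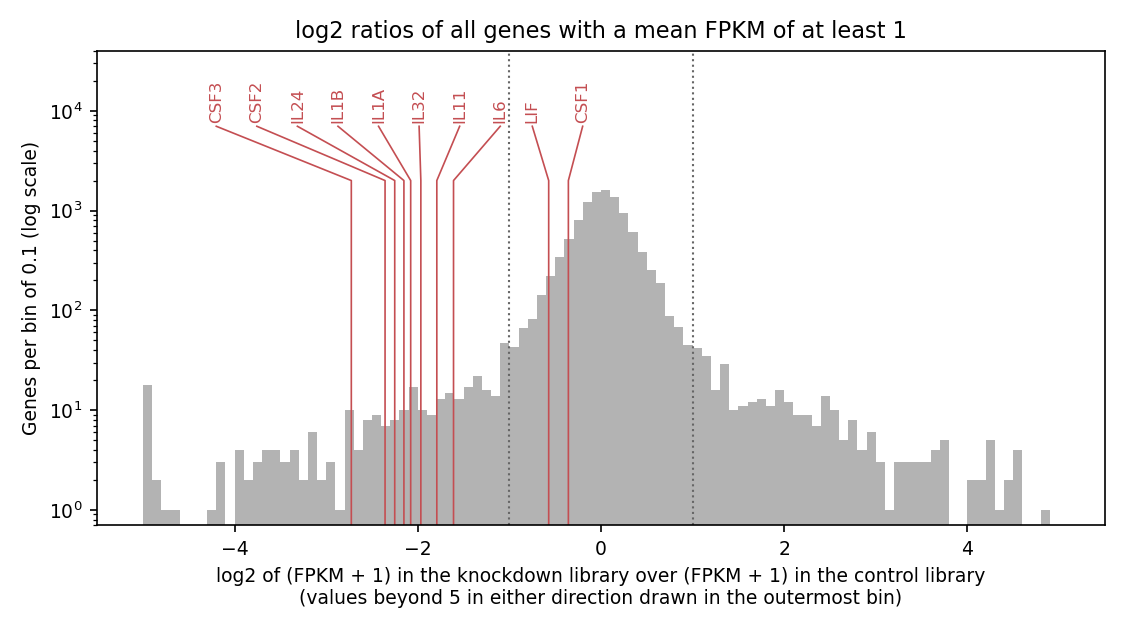
Distribution of the log2 ratio of the knockdown library over the control library for 11186 genes (mean FPKM 1 or more), in bins of 0.1 with the number of genes on a log axis. Red lines mark the 10 interleukin and colony stimulating factor genes and dotted lines a 2-fold difference; 8 of the 10 lie left of the lower dotted line, while LIF at −0.57 and CSF1 at −0.36 lie on the lower flank of the main peak.

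With 1 FPKM added, the colony stimulating factors covered both the largest and the smallest difference of the group. CSF3 (ENSG00000108342, chromosome 17 of GRCh38 from 40015361 to 40017813, plus strand) encodes G-CSF, the growth factor of neutrophils. It measured 0.175 FPKM with an interval of 0.00347 to 0.818 FPKM after knockdown, against 6.77 FPKM in the control, where the interval reached up to 8.22 FPKM. This log2 ratio of −2.73 was the lowest of the 10 genes with 1 FPKM added, while with 5 FPKM added CSF2 at −1.87 was the lowest. Because the knockdown value rests on a coverage of only 2.19 against 76.9 in the control library, its size depends strongly on the FPKM added before the log2, from −4.64 with 0.1 FPKM to −1.19 with 5 FPKM. In the control library all of CSF3 came from ENST00000394149. In the knockdown library that transcript was at 0.0999 FPKM and ENST00000225474 at 0.0747 FPKM.

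CSF2 (ENSG00000164400, chromosome 5 from 132073790 to 132076170, plus strand) encodes GM-CSF, which drives granulocytes, macrophages and dendritic cells. It was the second most abundant of the 10 genes in control cells, at 36.1 FPKM with an interval of 33.5 to 38.7 FPKM, and was at 6.24 FPKM with an interval of 5.17 to 7.32 FPKM in RBMS1-depleted cells. The level in the knockdown library was 17.3% of the control, a log2 ratio of −2.36. The annotation holds a single transcript for CSF2, ENST00000296871. In the knockdown library 2 assembled transcripts of a single exon, which are not in the gene value, lay inside CSF2 on its strand with 3.68 FPKM in sum, and with them CSF2 was at 9.92 FPKM against 36.1 FPKM, a log2 ratio of −1.77. CSF1 (ENSG00000184371, chromosome 1 from 109910242 to 109930992, plus strand) encodes M-CSF, the survival factor of macrophages. It measured 18.4 FPKM after knockdown with an interval of 17.4 to 20.1 FPKM, and 23.8 FPKM in the control with an interval of 22.6 to 25.9 FPKM, so that 77.2% of the control level remained. All of it came from 1 of its 9 reference transcripts, ENST00000329608, in both libraries, and the log2 ratio of −0.36 was the smallest difference of the group.

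Both interleukin 1 genes were near the bottom of the expressed range after RBMS1 depletion. They lie on the minus strand of chromosome 2, 45.2 kb apart, with IL1A (ENSG00000115008) from 112773915 to 112784590 and IL1B (ENSG00000125538) from 112829751 to 112836903. IL1A, an alarmin that is active without cleavage, was at 0.873 FPKM in the knockdown library with an interval of 0.664 to 1.08 FPKM. In the control library it was at 6.90 FPKM with an interval of 6.30 to 7.51 FPKM, which gives a log2 ratio of −2.08. IL1B, which is secreted after cleavage by caspase 1, measured 0.570 FPKM after knockdown, with an interval of 0.371 to 1.55 FPKM, against 5.97 FPKM in the control, where the interval started at 4.79 FPKM. Its log2 ratio was −2.15, and −0.98 with 5 FPKM added before the log2. In the knockdown library the gene value of IL1B was that of the reference transcript ENST00000263341. Assembled transcripts of a single exon inside IL1B, listed on the opposite strand in the knockdown library alone and not in the gene value, held another 1.53 FPKM, and with them the log2 ratio of IL1B was −1.17. The control had 3.59 FPKM of this transcript and 1.19 FPKM each of 2 assembled transcripts that share its introns.

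The 3 gp130 ligands were not alike in their ratios. IL6 (ENSG00000136244, chromosome 7 from 22725884 to 22732002, plus strand) encodes the main inducer of the acute phase response and measured 5.54 FPKM after knockdown with an interval of 4.02 to 7.81 FPKM. In the control it measured 19.0 FPKM with an interval of 17.3 to 21.5 FPKM, and the log2 ratio was −1.61. In control cells all of IL6 came from ENST00000258743. In RBMS1-depleted cells ENST00000258743 was at 2.31 FPKM, or 41.6% of the gene value, ENST00000485300 was at 1.51 FPKM, and 2 assembled transcripts were at 0.689 and 1.04 FPKM. With ENST00000258743 alone the log2 ratio of IL6 was −2.59.

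IL11 (ENSG00000095752, chromosome 19 from 55364389 to 55370463, minus strand) encodes a cytokine known in breast cancer for its part in bone metastasis. After RBMS1 depletion it measured 5.18 FPKM with an interval of 4.21 to 6.33 FPKM, against 20.4 FPKM with an interval of 18.3 to 22.8 FPKM in the control. The log2 ratio was −1.79. Both of its expressed transcripts were lower, ENST00000585513 at 3.56 against 13.0 FPKM and ENST00000264563 at 1.62 against 7.41 FPKM. The shares of the transcripts were similar in both libraries, with 68.7% and 63.7% of the gene in ENST00000585513. LIF (ENSG00000128342, chromosome 22 from 30240447 to 30246851, minus strand) encodes leukemia inhibitory factor. After RBMS1 depletion it measured 4.58 FPKM with an interval of 3.89 to 5.41 FPKM, against 7.29 FPKM with an interval of 6.49 to 8.24 FPKM in the control. The log2 ratio was −0.57. In both libraries the largest LIF transcript was an assembled one that started beyond the annotated gene, 11.1 kb upstream, at 2.28 FPKM in the knockdown library and 4.35 FPKM in the control library. The annotated ENST00000249075 was at 1.43 and 2.95 FPKM.

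IL24 and IL32 belong to neither of these receptor families. IL24 (ENSG00000162892, chromosome 1 from 206897443 to 206904139, plus strand) encodes a member of the interleukin 10 family. After RBMS1 depletion it measured 1.43 FPKM with an interval of 0.931 to 2.40 FPKM, against 10.6 FPKM with an interval of 9.13 to 12.5 FPKM in the control. The log2 ratio was −2.25. Its main transcript ENST00000294984 was at 0.898 and 7.63 FPKM, while ENST00000367093 was listed at 0 in the knockdown library and ENST00000611909 at 0 in the control library. IL32 (ENSG00000008517, chromosome 16 from 3065297 to 3082192, plus strand) encodes an inflammatory cytokine with many splice forms and was the most abundant of the 10 genes in control cells, at 43.5 FPKM with an interval of 36.3 to 53.9 FPKM. In RBMS1-depleted cells it was at 10.4 FPKM with an interval of 8.43 to 15.4 FPKM, a log2 ratio of −1.97.

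The transcripts of IL32 were divided differently in the libraries. Of its 35 reference transcripts only ENST00000530890 was above 0 in both libraries, at 5.33 FPKM in the knockdown library and 9.48 FPKM in the control library. In control cells an assembled transcript that runs from 3065297 to 3081729 held 39.5% of the gene, and ENST00000528163 and ENST00000440815 were at 9.62 and 7.24 FPKM, all of them listed at 0 or absent in the knockdown library. In RBMS1-depleted cells ENST00000325568 took up 48.7% of the gene and was listed at 0 in the control library. Since Cufflinks divides reads among these overlapping forms, the gene value is firmer than that of any single form. With reference transcripts only the log2 ratio of IL32 was −1.26.

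**Figure D3:**
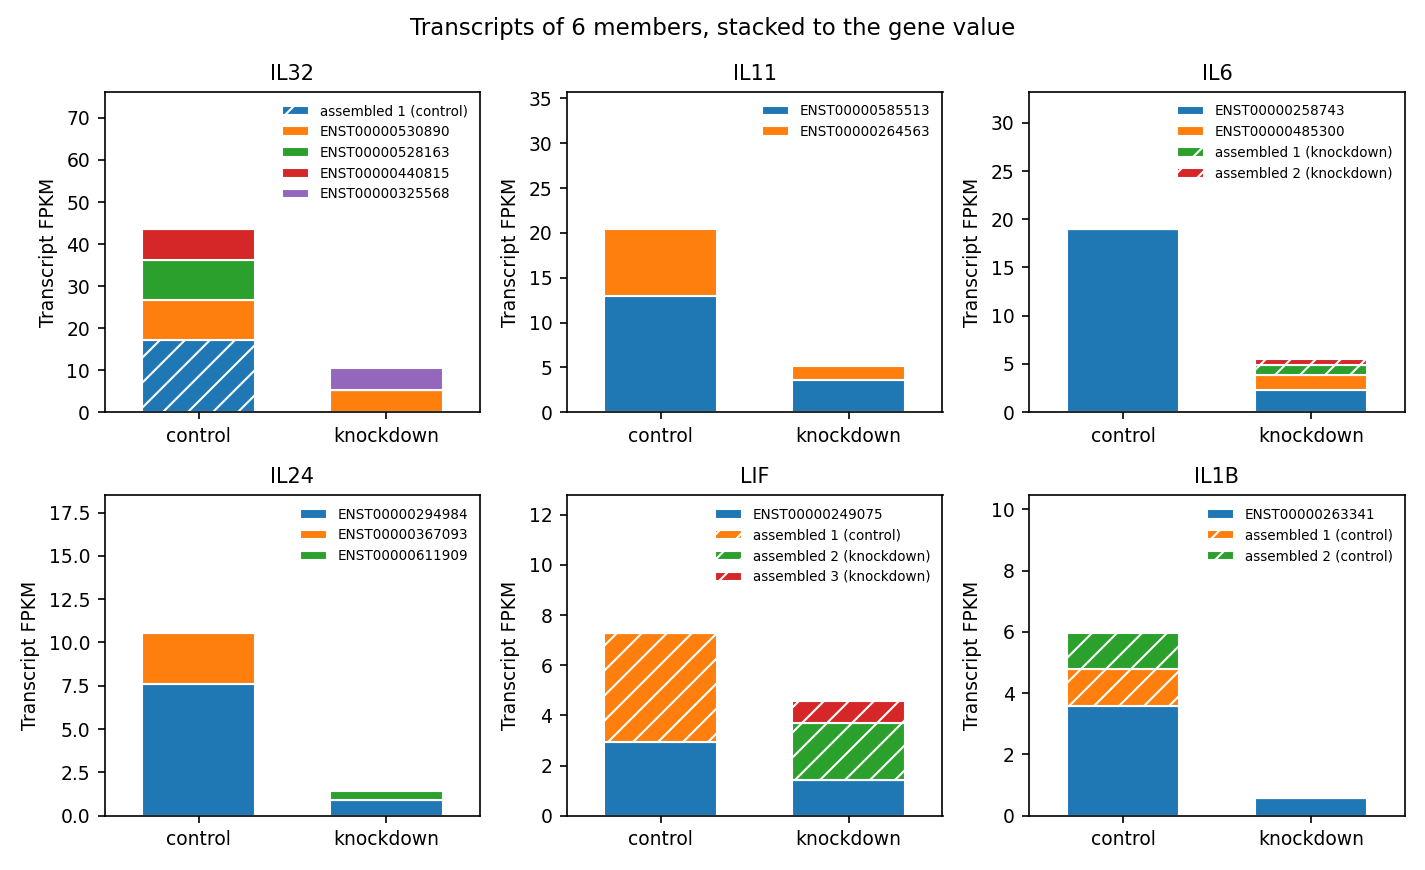
Transcript FPKM stacked to the gene value in the control and knockdown libraries for the 6 genes with the most divided expression; each panel has its own linear axis from 0, and hatched parts are transcripts assembled by Cufflinks in the library named in the legend. IL11 keeps both transcripts in both libraries, whereas the parts of IL32, IL6, IL24 and LIF differ between the libraries.

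Sequences of the 3′-UTR are shown because AU-rich elements are the feature for which these mRNAs are known. The core of such an element is the pentamer AUUUA, written ATTTA in the letters of the transcript sequences. The 3′-UTR of the most abundant coding reference transcript of each gene was searched on the sense strand, with overlapping pentamers counted separately. Not shown are IL1A, with 3 pentamers in its densest 30 bases, and IL24 and CSF1, with 2 each, as many as IL6. The stretches below are the 30 bases with the most pentamers in 6 of the genes, from GENCODE release 29 on GRCh38, with each pentamer in capitals.
CSF2 (chr5:132076077-132076106, plus strand, 5 pentamers): aaatATTTATTTATTTATTTATTTAagttc
IL11 (chr19:55365942-55365971, minus strand, 3 pentamers): cagatcttATTTATTTATTTAtttcagtac
IL1B (chr2:112829994-112830023, minus strand, 3 pentamers): gcttccctATTTATTTATTTAtttgtttgt
CSF3 (chr17:40016979-40017008, plus strand, 3 pentamers): atgtATTTAtctctATTTAatATTTAtgtc
IL6 (chr7:22731705-22731734, plus strand, 2 pentamers): atttttaATTTAttaatATTTAaatatgtg
LIF (chr22:30240522-30240551, minus strand, 3 pentamers): ATTTAttcaatgtcatATTTAaaatATTTA

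In the first 3 of these stretches the pentamers overlap, and CSF2 has the longest run of the group with 5 of them. Overlapping pentamers were present in 3 of the 10 genes and in 6.21% of the 9724 other expressed genes with a 3′-UTR. At least 1 pentamer was present in 9 of the 10 genes and in 69.0% of the others, IL32 being the gene without one. The share depends on length, so each UTR was set beside those of like length, between 0.8 and 1.25 times its own. Of 871 such UTRs for CSF2, none had as many as its 8 pentamers in 318 nt, and for IL11 with 7 pentamers in 448 nt and IL6 with 6 in 427 nt the shares with as many were 0.0949% and 0.0983%. For IL1B with 6 pentamers and CSF3 with 7, the shares were 1.65% and 1.73%. For IL1A and IL24, with 5 and 3 pentamers, they were 19.9% and 26.1%.

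The 2 genes that did not reach a 2-fold difference had the lowest density of pentamers after IL32. LIF had 2.18 pentamers per kb of its 3204 nt and CSF1 had 1.86 per kb of 2154 nt, close to the median of 1.64 per kb of the other genes. By count they did not stand apart, since LIF had 7 pentamers, as many as IL11 and CSF3. CSF1 had 4, against 3 in IL24. For LIF 54.5% and for CSF1 63.5% of the UTRs of like length had as many. The 7 genes that were at least 2-fold lower and have pentamers had between 3.72 per kb in IL24 and 25.2 per kb in CSF2. IL32, with none in 193 nt, was 4.19-fold lower in the knockdown library. The 10 points share both libraries and are few, and a link between pentamers and ratios was not tested. The order of the ratios also changes with the transcripts counted. IL6, with 14.1 pentamers per kb, had the smallest of the 8 differences by the summed gene value, whereas with reference transcripts only it was at −2.05 and IL32 at −1.26 had the smallest. Among the other expressed genes, 3.48% of the 604 with overlapping pentamers were at least 2-fold lower, 1.92% of the 6103 with pentamers that do not overlap and 1.99% of the 3017 without any.

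**Figure D4:**
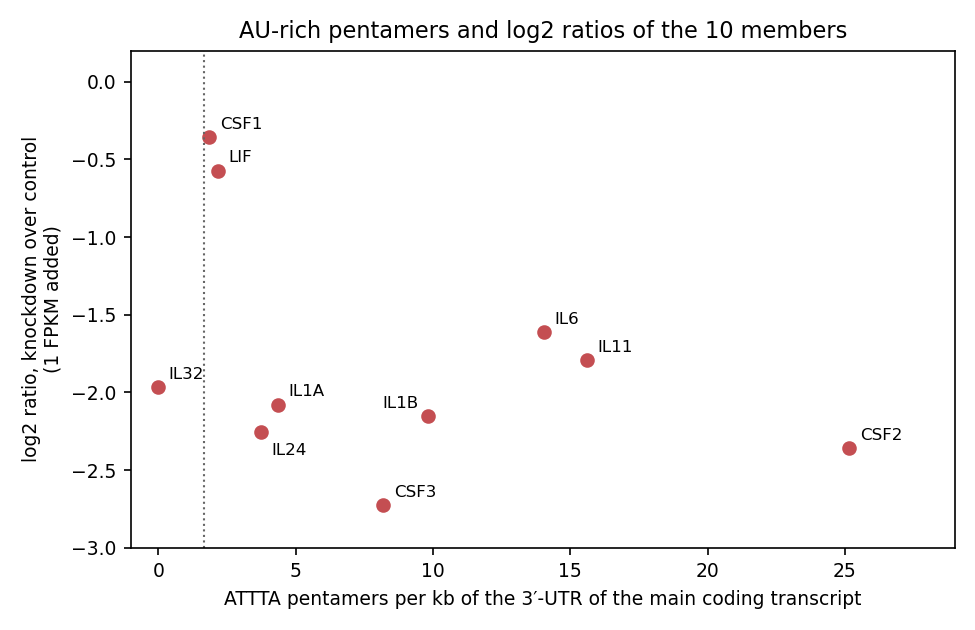
ATTTA pentamers per kb of the 3′-UTR against the log2 ratio of the knockdown library over the control library for the 10 genes (1 library per group). The dotted line is the median of 1.64 pentamers per kb of 9724 other expressed genes; CSF1 and LIF lie near that line with the smallest differences, and IL32 lies at 0 pentamers with a log2 ratio of −1.97.

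The pentamer ATATA, of the kind bound by proteins of the RBMS family in vitro, was counted in the same UTRs. It was present in 6 of the 10 genes and in 57.0% of the other genes. IL1A had 5 and CSF1 had 4, IL1B had 2, and IL6, IL11 and CSF2 had 1 each. CSF3, IL24, IL32 and LIF had none. LIF thus had no ATATA in 3204 nt, while 91.8% of the UTRs of like length had at least 1, and CSF3 had none either.

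Promoter sequences from RefSeq on GRCh38.p14, from 250 bases before to 50 bases after a start, were held for 7 of the 10 genes, in 9 promoters. CSF1, CSF3 and LIF were not among them. The promoters were searched on both strands for the NF-κB consensus, in a loose form with any base at its positions 5 and 6, and for the AP-1 site (TGACTCA or TGAGTCA, which are the reverse complements of each other). The NF-κB consensus was found in IL6 and IL32, 2 of 7 genes, and in 13.3% of all genes with a promoter. A strict form, with A or T at position 6, was found in the same 2 genes and in 7.09% of all genes. AP-1 sites were found in IL1A and IL11, 2 of 7 genes, and in 6.05% of all genes. One site per gene is shown in capitals in 30 bases of the gene's strand, since these factors are those for which cytokine promoters are known.
IL6, NF-κB (chr7:22727117-22727146): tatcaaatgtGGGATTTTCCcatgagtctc
IL32, NF-κB (chr16:3065294-3065323): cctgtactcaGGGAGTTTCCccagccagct
IL1A, AP-1 (chr2:112784487-112784516): gcgaagaagacTGACTCAggcttaagctgc
IL11, AP-1 (chr19:55370541-55370570): ggcagggagggTGAGTCAggatgtgtcagg
IL1A held another AP-1 match, and in IL32 an overlapping NF-κB match lay on the opposite strand. IL1B, CSF2 and IL24 held neither motif in this window. All 7 genes with a promoter sequence were at least 2-fold lower, so the matches cannot be set against the ratios. A match of letters is a description and does not show that a factor binds there.

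The genes beside the cytokine genes were also looked at. For each of the 10 genes the nearest expressed protein-coding gene that is not itself 1 of the 10 was taken on either side, which gave 18 genes. This rule passes over IL1A and IL1B, which lie 45.2 kb apart with no expressed protein-coding gene between them and were both at least 2-fold lower. None of the 18 was 2-fold lower or higher, a count near the background of 2.8% and 2.96% of all genes, and their log2 ratios ran from −0.53 in P4HA2, on one side of CSF2, to 0.59 in FNIP1 on the other side. The closest ones are given here, chosen after their values were seen. MED24, 1.28 kb from CSF3, measured 13.0 FPKM after knockdown against 11.5 FPKM in the control. FCMR, 0.247 kb from IL24, was at 2.64 and 2.59 FPKM, and CKAP2L, 9.24 kb from IL1A, was at 26.2 and 22.5 FPKM. That none of these neighbours reached a 2-fold difference is near the same background, and a cause acting on the region was not tested.

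Few other ligands of the same families were listed at a mean of 1 FPKM or more. Of 43 further interleukins, gp130 ligands and hematopoietic growth factors, 24 were listed at 0 in both libraries, which does not show that they are silent, and 4 reached that mean. These were CLCF1, a gp130 ligand, with 6.51 FPKM after knockdown against 8.63 FPKM in the control, IL18 with 4.35 and 2.86 FPKM, KITLG, which encodes stem cell factor, with 3.54 and 2.77 FPKM, and CTF1, which encodes cardiotrophin 1, with 1.85 and 0.94 FPKM. IL18 and KITLG are named because they complete the count. None of the 4 reached a 2-fold difference, where 2.8% of all genes were lower and 2.96% higher by that size, so that a count of 0 among so few genes is near the background. Their median log2 ratio was 0.37, and with a mean of at least 5 FPKM required CLCF1 alone is left, at −0.36. IL15, which activates lymphocytes and is named after its values were seen, did not reach a mean of 1 FPKM. It measured 1.70 FPKM after knockdown with an interval of 1.05 to 2.75 FPKM and was listed at 0 in the control with an upper limit of 0.505 FPKM. The intervals thus did not overlap, but a value of 0 can be a failed estimate. ELAVL1, also listed at 0 in the control, had an upper limit of 0.299 FPKM there, so such a limit need not bound the true level.

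Receptors were present for part of the ligands. Of 16 receptor genes 6 were expressed, none was 2-fold lower or higher, beside 2.8% and 2.96% of all genes, and their median log2 ratio was −0.09. IL6ST, which encodes gp130, had the largest decrease, with 37.4 FPKM after knockdown against 52.6 FPKM in the control and a log2 ratio of −0.48. LIFR, which pairs with gp130 in the LIF receptor, was at 7.69 and 6.03 FPKM. OSMR, a chain of the oncostatin M receptor, was at 20.6 and 20.3 FPKM. IL1R1 was at 2.15 and 2.84 FPKM and its partner IL1RAP at 2.01 and 2.45 FPKM. CSF2RA, the α chain of the GM-CSF receptor, was at 10.7 and 10.6 FPKM, while its β chain CSF2RB, named after its value was seen like the next pair of genes, was at 0.00592 and 0.00936 FPKM. The G-CSF receptor gene CSF3R was listed at 0 in both libraries, and IL6R was at 0.0401 and 0.575 FPKM.

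The lists of signalling genes had counts near the background. Of 16 expressed genes of interleukin 1 processing and signalling, none was 2-fold lower and 1 was 2-fold higher, beside 2.8% and 2.96% of all genes, with a median log2 ratio of 0.01. That gene was SIGIRR, an inhibitory receptor of the interleukin 1 family, with 3.77 FPKM after knockdown against 0.893 FPKM in the control and overlapping intervals. The largest decrease was IRAK2, a kinase of the pathway, with 2.34 and 4.38 FPKM and a log2 ratio of −0.69. IL1RN, which encodes the natural antagonist of interleukin 1, measured 1.67 FPKM after knockdown against 1.57 FPKM in the control. IL1RN lies on the same chromosome as IL1A and IL1B. Of 13 expressed JAK-STAT genes none reached 2-fold in either direction, which is near the same background. Their median log2 ratio was −0.02, from −0.28 for the kinase JAK1 to 0.60 for SOCS3, the feedback inhibitor of gp130 signalling, at 9.61 and 6.01 FPKM.

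Of 15 STAT3 target genes, all of them expressed, 1 was 2-fold lower and none 2-fold higher, beside the same 2.8% and 2.96% of all genes, with a median log2 ratio of −0.04. The angiogenic factor VEGFA measured 13.8 FPKM after knockdown, 45.9% of the control, with a log2 ratio of −1.07, and the kinase gene PIM1 measured 13.0 against 6.67 FPKM, with 0.87. Of 14 expressed regulators of cytokine mRNA decay, 2 were 2-fold lower and none 2-fold higher, again beside 2.8% and 2.96% of all genes, with a median log2 ratio of −0.06. ELAVL1, which encodes the AU-rich element binding protein HuR, is the gene of this list that was listed at 0. The lower ones were ZC3H12A, which encodes Regnase-1, an endonuclease that cleaves IL6 mRNA, and its relative ZC3H12C, named because it is the other gene of this count. ZC3H12A measured 2.02 FPKM after knockdown against 7.81 FPKM in the control, a log2 ratio of −1.54, and ZC3H12C measured 8.35 against 23.7 FPKM, with −1.40. ZFP36, which encodes tristetraprolin, a protein that binds AU-rich elements and promotes decay, measured 9.82 against 5.50 FPKM and had the largest increase of this list, with 0.74.

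**Figure D5:**
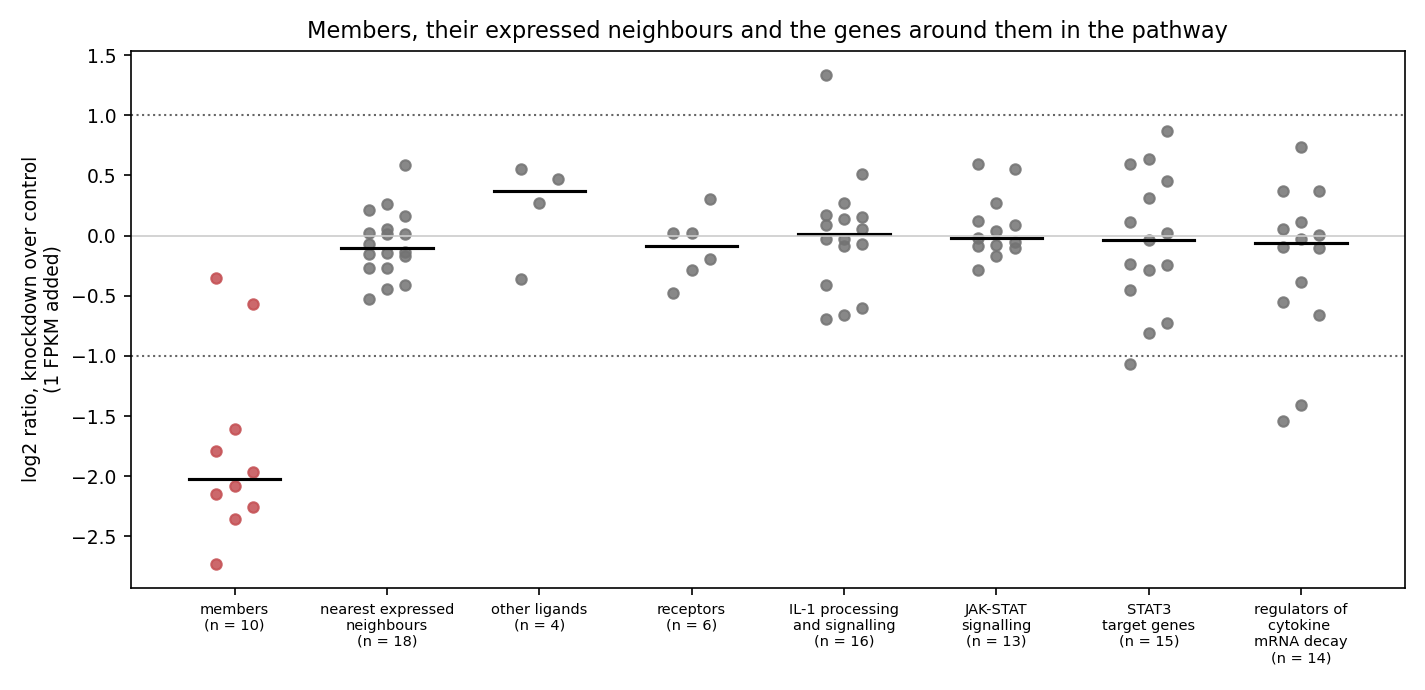
log2 ratios of the knockdown library over the control library (1 library per group) for the 10 genes, their 18 nearest expressed neighbours outside the group and the expressed genes of 6 lists around them. Points are genes, black bars medians and dotted lines a 2-fold difference; the 10 genes have a median of −2.02, and the medians of the other groups lie between −0.10 and 0.37.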

How the data were processed

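RNA-seq libraries of MDA-MB-231 cells, 1 with RBMS1 knockdown and 1 control, were grouped by their labels. For each library the authors deposited Cufflinks transcripts with FPKM, an interval and coverage. The submitters' processing notes name Bowtie2 2.0.6, TopHat2 2.0.9, Cufflinks 2.1.1 and Cuffdiff 2.1.1. The annotation release and strand setting are not given in the sources used here. The authors also deposited a table of 7236 transcripts with p-values under 0.05. Its FPKM columns served as an alternative, and its log2 fold changes, p-values and q-values were not used.

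Reference transcripts were joined to GENCODE release 29 by identifier, and 98.1% of them started at the annotated position, which places them on GRCh38. Gene levels were summed from reference transcripts and from assembled transcripts sharing at least 1 intron on the same strand. The remaining assembled transcripts, which held 54.9% (knockdown) and 60.3% (control) of the total FPKM, were left out. Log2 ratios were computed with 1 FPKM added, and genes averaging 1 FPKM or more entered the counts. Reads of overlapping genes cannot be told apart without strand. An FPKM of exactly 0 can be a failed estimate.

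The text names the 10 genes, RBMS1, expressed receptors and IL1RN, the largest decrease and increase of each of 6 lists, and genes marked as named otherwise. The 10 genes and the lists were chosen with earlier results of these data known. Alternatives were 2 other pseudocounts, 3 scalings, 2 filters, reference or dominant transcripts only and the deposited table. Python 3.11.15, pandas 2.3.3 and matplotlib 3.10.9 were used.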

Additional observations from a re-analysis of the deposited data

Results flagged for a closer look

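Assembled transcripts that share no intron with a gene were not part of the gene values. Inside CSF2, 2 such transcripts of a single exon were listed in the knockdown library, with 3.68 FPKM in sum, and none in the control library. Inside IL1B, 2 were listed in the knockdown library, with 1.53 FPKM in sum and on the opposite strand, and none in the control library. They stand out because they appear in data that no comparison used and exceed the control. With them included, a choice made after seeing the data, the log2 ratio was −1.77 for CSF2 and −1.17 for IL1B, and 8 of the 10 genes remained at least 2-fold lower. At IL6 the higher value was in the control library, with 6.63 FPKM against 1.47 FPKM in the knockdown library.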

How the results depend on the processing

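No paired analysis was possible because each group holds a single library. The log2 ratio of each of the 10 genes stayed below 0 under all alternatives that were run. One of them, the deposited table, holds only transcripts with p-values under 0.05 between the same 2 libraries, so its ratios are no independent check. With 5 FPKM added before the log2, the median log2 ratio of the 10 genes was −1.19, RBMS1 was at −1.73, and IL1B at −0.98 no longer reached 2-fold. With a mean FPKM of at least 5 required, 5 of the 10 genes were at least 2-fold lower, because IL1A, IL1B and CSF3 no longer pass, and the median of the other ligands was −0.36, the value of CLCF1 alone. At least 1 pentamer in place of overlapping ones was found in 9 of the 10 genes. Over all genes, 313 of 11186 (2.8%) were at least 2-fold lower and 331 (2.96%) higher in the main setting. The counts were 133 (1.19%) and 124 (1.11%) with 5 FPKM added, 138 (1.9%) and 140 (1.93%) of 7248 genes with a mean of at least 5 FPKM, 507 (4.87%) and 553 (5.31%) of 10407 genes when assembled transcripts were left out, 741 (7.16%) and 757 (7.31%) of 10353 genes when each gene was read from its dominant transcript, and 671 (4.89%) and 662 (4.83%) of 13711 genes after rescaling both libraries to the same sum. With the dominant transcript only, IL32 had a log2 ratio of −4.19, because its assembled transcript is listed in the control library alone. The depth of both libraries limits CSF3, IL1A and IL1B, which were under 1 FPKM in the knockdown library.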
